A study of Homo sapiens with 6 samples.

Results

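The collagen chain genes encode the alpha chains of the collagens. They were taken as the rows of the deposited count table whose symbol reads COL, digits, A, digits and nothing more. COL17A1, a transmembrane collagen of epithelial hemidesmosomes, has a symbol of this form but was excepted by name. This gave 43 genes of the 56303 in the table, of which 11 were classed as fibrillar, 6 as basement membrane and 26 as other collagens. The cells were T24, an established human line derived from a bladder carcinoma and transfected for 48 h with a control siRNA (siNC) or with siRNA against FBXL6 (siFBXL6). FBXL6 is an F-box protein, the part of an SCF ubiquitin ligase that binds the substrate, and the comparison asks how the transcriptome differs once FBXL6 is targeted. RNA-seq gave 3 libraries per group, and the sources used here do not tell which siRNA against FBXL6 went into these libraries. Nor do they say for these libraries in particular that the 3 of a group came from separate cultures, so the p-values measure the spread between these libraries, which may be technical.

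The libraries labelled siNC held 58646515, 60967902 and 56814946 counts, and those labelled siFBXL6 held 60968158, 60898556 and 60754015 counts. Counts of libraries within a group were farther apart than sampling alone would put them, with a chi-square per degree of freedom between 2.85 and 6.23 where sampling gives 1. If both reads of a pair were counted, which the sources used here do not state, the halved counts give values between 1.43 and 3.11. All 6 were therefore kept as separate samples.

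Collagens are secreted proteins in which alpha chains wind into a triple helix, either of identical chains or of the products of different genes. Fibrillar collagens assemble into the fibrils of connective tissue, and type IV collagen forms the sheet-like network of basement membranes, which carcinoma cells both rest on and produce. Chains are hydroxylated and folded in the endoplasmic reticulum, exported in large carriers, trimmed outside the cell and crosslinked.

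FBXL6 itself (chromosome 8, 144355431 to 144359376, minus strand, GRCh38) had 362, 414 and 398 counts under the label siNC and 398, 344 and 350 counts under the label siFBXL6. These ranges overlapped. The log2 fold change was -0.13 (95% interval -0.31 to 0.05, adjusted p = 0.247), so the FBXL6 count did not separate the groups. Of the FBXL6 exon bases, 31.7% also belong to SLC52A2, which runs the other way, and 5.3% to GS1-393G12.13 on the same strand. The sources used here do not say whether strand entered the counting. SLC52A2 was not called, at a log2 fold change of 0.15 (adjusted p = 0.078). The part of these overlaps in the FBXL6 count was not tested. Samples are accordingly called here by their labels, as siNC-labelled or siFBXL6-labelled libraries, and every direction below is that of the labels, siFBXL6 over siNC.

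Marker genes of cell types were read beside the label of a bladder carcinoma line. Whether their levels are those of T24 was not tested. KRT7, a keratin of simple and urothelial epithelium, stood at 1038 ± 21.1 CPM (counts per 1000000 after normalization, SD, n = 3) in the siNC-labelled libraries. EPCAM was at 274.2, CDH1 at 118.3 and KRT5 at 437.4 CPM there. Of the 8 tested epithelial markers 5 were lower in the siFBXL6-labelled libraries and 1 was higher. That is 75% called at an adjusted p under 0.05, where 40.2% of all genes tested and 59.6% of those at 10 CPM or more were. The uroplakins UPK1B and UPK3A, which mark differentiated urothelium, were near 0 at 0.0116 and 0.0172 CPM in the siNC-labelled libraries, and UPK2 was at 1.41 ± 0.279 CPM (SD, n = 3). The 8 fibroblast markers summed to 49.1, 49.5 and 50.3 CPM in the siNC-labelled libraries and to 34.2, 33.4 and 32.3 CPM in the siFBXL6-labelled ones. Of 7 tested, 3 were called lower, and the 42.9% called lay close to the 40.2% of all genes tested. Most of the sum was THY1, which fell by 0.51 on the log2 scale (adjusted p = 1.94e-11), and ACTA2, smooth muscle actin, fell by 1.01 (adjusted p = 9.53e-12). The stromal markers DCN and LUM were at 0.192 and 0.248 CPM and FAP at 0.102 CPM in the siNC-labelled libraries. In bulk RNA of a cell line, fewer cells that express a gene and less of its RNA per cell cannot be told apart. The part of these markers in the collagen results was not tested. Endothelial markers summed to 2.95 ± 0.214 CPM in the siNC-labelled and 3.87 ± 0.491 CPM in the siFBXL6-labelled libraries, and leukocyte markers to 1.33 ± 0.502 and 1.12 ± 0.0487 CPM (SD, n = 3). The most abundant gene of each list was KDR at 1.04 CPM or CD14 at 0.548 CPM in the siNC-labelled libraries. Of the 5 tested endothelial markers only PECAM1, an adhesion molecule, was called, with a rise from 0.573 to 1.39 CPM (adjusted p = 4.41e-05), and none of the 3 tested leukocyte markers was.

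Of the 43 collagen genes, 32 had enough counts to be tested and 11 did not. The untested genes never exceeded 18 counts in a library, and the most counted of them were COL26A1, COL15A1 and COL28A1. At an adjusted p under 0.05, 18 of the 32 tested genes were called, against 40.2% of all 21298 genes tested. The calls were 8 higher, where the background was 20.5%, and 10 lower, where it was 19.8%. The number higher fell to 5 without siNC 1 or without siNC 3 and to 4 without siFBXL6 1. For 16 of the 32 genes the groups had no overlap, close to the 48.2% found over all genes. Calls followed abundance, since 10 of the 11 collagen genes averaging 10 CPM or more were called, where 59.6% of all 9887 genes at that abundance were. The median log2 fold change of the 32 genes was 0.01, and that of all genes tested was -0.0071.

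Levels of different genes were compared per length, as CPM per kilobase of exon (RPKM). COL4A2, COL7A1, COL4A1 and COL12A1 were the most abundant members, and together made up 87.4% of the summed collagen RPKM in the siNC-labelled libraries and 85.5% in the siFBXL6-labelled ones. COL4A2 was the most abundant in both groups. COL4A1 (90 ± 2.39 RPKM) stood above COL7A1 (82.1 ± 1.9 RPKM) in the siNC-labelled libraries, and in the siFBXL6-labelled ones (44.8 ± 0.184 RPKM) it stood below COL7A1 and COL12A1 (65.8 ± 0.854 RPKM, SD, n = 3 each). Summed over all 43 genes the level was 490.2, 478.8 and 467.7 RPKM in the siNC-labelled libraries and 401.6, 400.6 and 394.7 RPKM in the siFBXL6-labelled ones. The groups did not overlap, and the ratio of their means was 0.833 (exact two-sided permutation p = 0.1, the smallest that 3 libraries against 3 allow). COL4A1 alone accounted for 56.5% of this difference, COL7A1 for 19% and COL4A2 for 18%. As a share of all counts, with no other scaling, the members held 0.456 ± 0.00859% against 0.38 ± 0.00368% (SD, n = 3). Without COL4A1 the summed level was 389 ± 9.03 against 354.2 ± 3.58 RPKM (SD, n = 3).

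**Figure D1:**
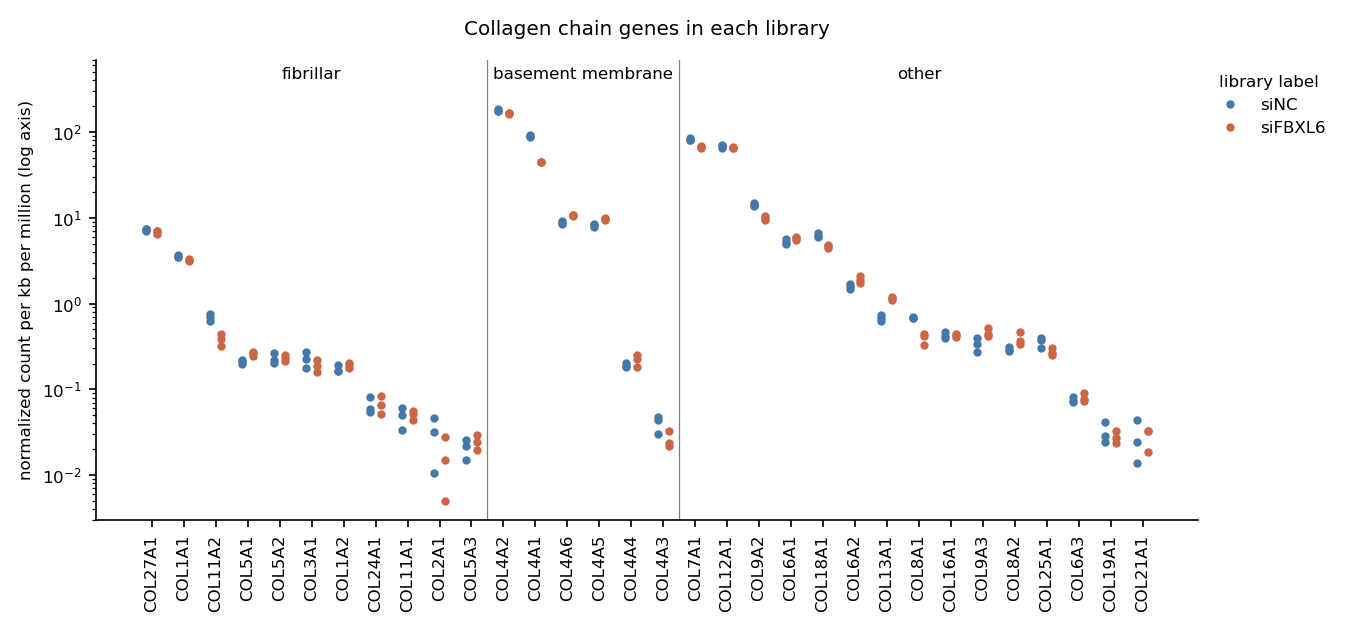
Level of each of the 32 tested collagen chain genes in each library, in RPKM on a log axis, with genes sorted by level within the fibrillar, basement membrane and other classes. Each point is 1 library, 3 labelled siNC and 3 labelled siFBXL6. COL4A1 shows separate groups at 90 and 44.8 RPKM, and COL4A2, the most abundant gene, lies close to its control level.

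The fibrillar class was expressed at a low level in T24 cells. All 11 genes were tested, 1 was called higher and 3 lower, and their median log2 fold change was 0.03. The 36.4% called lay below the 40.2% of all genes tested. The summed level was 12.5 ± 0.444 RPKM in the siNC-labelled libraries and 11.4 ± 0.394 RPKM in the siFBXL6-labelled ones (SD, n = 3). COL27A1, a fibrillar chain of cartilage and other tissues, was the most abundant. Its level was 7.37, 7.43 and 7.03 RPKM in the siNC-labelled libraries and 6.93, 7.02 and 6.48 RPKM in the siFBXL6-labelled ones. The groups lay next to each other without overlap, at a log2 fold change of -0.095 (adjusted p = 0.0235). That call was lost without siNC 2 (adjusted p = 0.111) and without siFBXL6 3 (log2 fold change -0.0594, adjusted p = 0.254), in a range of 0.0049 to 0.254 over the alternatives.

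COL1A1, the major chain of type I collagen, was at 3.49, 3.69 and 3.49 RPKM in the siNC-labelled libraries and at 3.27, 3.22 and 3.14 RPKM in the siFBXL6-labelled ones. Every siFBXL6-labelled library was below every siNC-labelled library, at a log2 fold change of -0.15 (adjusted p = 0.00427). Its partner chain COL1A2 was far lower, with counts of 108, 134 and 106 against 130, 136 and 120, which overlapped (log2 fold change 0.12, adjusted p = 0.551). The ratio of COL1A1 to COL1A2 within a library was 21.1, 19 and 21.1 in the siNC-labelled libraries and 16.9, 15.9 and 17.6 in the siFBXL6-labelled ones. These ratios did not overlap between the groups (exact two-sided permutation p = 0.1, the smallest possible), and they rest on the low counts of COL1A2. COL3A1, the type III chain of elastic connective tissue, was at 0.224 ± 0.0459 RPKM and 0.19 ± 0.0314 RPKM (SD, n = 3) in the siNC and siFBXL6 libraries, with overlap and an adjusted p of 0.325.

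COL11A2, a chain of the type XI collagen of cartilage fibrils, changed most among the called fibrillar genes. It had 274, 313 and 240 counts in the siNC-labelled libraries and 180, 158 and 130 counts in the siFBXL6-labelled ones. The lowest siNC count lay above the highest siFBXL6 count. The log2 fold change was -0.85 (SE 0.12, adjusted p = 6.54e-07), and it was called under each of the 15 alternatives judged at this threshold, between -0.96 and -0.73. COL5A1, the type V chain that starts fibril assembly, had 142, 144 and 126 counts against 180, 186 and 166. Its groups did not overlap, and the log2 fold change was 0.34 (adjusted p = 0.0333). The call was lost with DESeq2 (adjusted p = 0.0634), with no filter on low counts (0.0527) and without siNC 2 (0.0632), siNC 3 (0.0947), siFBXL6 1 (0.0759) or siFBXL6 2 (0.106), in a range of 0.0316 to 0.106. The remaining fibrillar chains COL2A1, COL5A2, COL5A3, COL11A1 and COL24A1 were not called, at levels of at most 0.232 RPKM in either group and log2 fold changes from -0.89 for COL2A1 to 0.23 for COL5A3, with intervals as wide as -2.08 to 0.29. With each library left out in turn, COL2A1 ranged from -1.54 (without siFBXL6 3) to -0.428 (without siNC 1) and COL5A3 from 0.0523 (without siNC 1) to 0.405 (without siNC 3).

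The basement membrane class held the largest change among the called collagen genes. All 6 type IV genes were tested, 2 were called higher and 2 lower, in the main comparison and in each alternative run. That is 66.7% called, where the main comparison called 40.2% of all genes tested. They lie in 3 head-to-head pairs, COL4A1 with COL4A2 on chromosome 13, COL4A4 with COL4A3 on chromosome 2, and COL4A6 with COL4A5 on chromosome X. In each pair the genes run in opposite directions from neighbouring starts. COL4A1 and COL4A2 supply the chains of the network found in nearly all basement membranes, with COL4A1 the more numerous chain in each trimer. COL4A5 pairs with COL4A6 in epithelial and smooth muscle basement membranes, and with COL4A3 and COL4A4 in the kidney glomerulus.

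COL4A1 (chromosome 13, 110148963 to 110307149, minus strand) had 44368, 45069 and 41422 counts in the siNC-labelled libraries and 22189, 22230 and 22003 counts in the siFBXL6-labelled ones. The groups were far apart compared with the spread inside each. Per length this was 90 ± 2.39 against 44.8 ± 0.184 RPKM (SD, n = 3), a fold of 0.498. The log2 fold change was -1.01 (SE 0.028, 95% interval -1.06 to -0.95, adjusted p = 1.98e-24), and the gene ranked 21 of 21298 by p.

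COL4A2 (chromosome 13, 110305812 to 110513027, plus strand) had 93488, 94898 and 87279 counts in the siNC-labelled libraries and 86848, 86674 and 84851 counts in the siFBXL6-labelled ones. After normalization every siFBXL6-labelled library was below every siNC-labelled library, but by little, at 178.2 ± 4.76 against 163.8 ± 1.84 RPKM (SD, n = 3). The log2 fold change was -0.12 (SE 0.027, adjusted p = 4.03e-04). The ratio of COL4A1 to COL4A2 within a library was 0.505, 0.505 and 0.505 in the siNC-labelled libraries and 0.272, 0.273 and 0.276 in the siFBXL6-labelled ones. The pair thus held a nearly fixed ratio within each group and different ratios between the groups, a difference of -0.88 on the log2 scale (exact two-sided permutation p = 0.1, the smallest possible). Since it is taken within a library, this ratio does not depend on the normalization. As a share of the summed collagen RPKM, COL4A1 was 18.8 ± 0.154% against 11.2 ± 0.0692% and COL4A2 37.2 ± 0.319% against 41.1 ± 0.0871% (SD, n = 3).

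The rows of the pair overlap in span, since the COL4A2 row starts inside the COL4A1 gene, but their counted exons share no base. COL4A2 exons share 0.93% of their bases with COL4A2-AS1 and 0.161% with COL4A2-AS2, both on the opposite strand. COL4A2-AS1 was at 15.3 ± 0.927 against 12.9 ± 0.615 CPM (SD, n = 3), with a log2 fold change of -0.25 (adjusted p = 0.00169), and COL4A2-AS2 was not called (log2 fold change -0.09, adjusted p = 0.114). These antisense rows were named after their values were seen.

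Sequence at the starts of type IV pairs is shown for chromosomes 13 and X because the partners changed by unequal amounts on chromosome 13 and by similar amounts on chromosome X. RefSeq promoters (GRCh38.p14) were found for 31 of the 43 members, all 6 type IV genes included. The RefSeq starts lie 126 bases apart for COL4A1 and COL4A2, 418 for COL4A4 and COL4A3, and 379 for COL4A5 and the nearer start of COL4A6. Below are the whole stretch between COL4A1 and COL4A2 (chr13:110307158-110307283) and the 250 bases before COL4A5 (chrX:108439588-108439837), both on the plus strand. Capitals mark each match to CCAAT or to the motif of letters GGGCGG, on either strand.
COL4A1 to COL4A2: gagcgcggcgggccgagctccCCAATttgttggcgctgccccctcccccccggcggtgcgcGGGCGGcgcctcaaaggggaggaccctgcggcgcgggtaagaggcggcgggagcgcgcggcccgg
COL4A5: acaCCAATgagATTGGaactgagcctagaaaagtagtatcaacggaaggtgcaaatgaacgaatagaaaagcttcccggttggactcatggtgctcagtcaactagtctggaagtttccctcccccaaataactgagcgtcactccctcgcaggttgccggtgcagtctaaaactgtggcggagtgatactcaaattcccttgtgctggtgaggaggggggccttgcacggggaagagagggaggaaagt
The stretch between COL4A1 and COL4A2 held 1 CCAAT and 1 GGGCGG, and 80.2% of its bases were G or C. Of 35116 RefSeq promoters, 21.1% held CCAAT and 34.6% held GGGCGG on either strand in the 126 bases before the start, and the median G and C share was 60.3%. The stretch before COL4A5 held CCAAT once on each strand and no GGGCGG, at 51.2% G or C, where 32% and 42.6% of promoters held these motifs in 250 bases. Searches on both strands found no TATAAA in either stretch, where 5.87% of promoters held it in 126 bases and 10.7% in 250. Nor did they find TGANTCA, which 3.5% and 6.57% of promoters held. The matches to different motifs did not overlap each other.

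On chromosome X, COL4A5 (108439844 to 108697545, plus strand) had 4250, 4553 and 3938 counts in the siNC-labelled libraries and 5009, 5085 and 5176 counts in the siFBXL6-labelled ones. COL4A6 (108155607 to 108439497, minus strand) had 4989, 4912 and 4606 counts against 5875, 6087 and 5992. In both genes each siFBXL6-labelled library was above each siNC-labelled library. The log2 fold changes were 0.23 for COL4A5 (SE 0.033, adjusted p = 5.9e-07) and 0.28 for COL4A6 (SE 0.033, adjusted p = 1.35e-08). Their ratio within a library overlapped between the groups, at 0.933 ± 0.0451 against 0.904 ± 0.0152 (SD, n = 3). On chromosome 2, COL4A4 (109, 112 and 116 counts against 110, 151 and 134) and COL4A3 (16, 27 and 23 against 13, 12 and 18) were low and overlapped, with log2 fold changes of 0.2 (adjusted p = 0.321) and -0.64 (95% interval -1.42 to 0.14, adjusted p = 0.189). Neither gene was called, but the ratio of COL4A3 to COL4A4 within a library was 0.159, 0.261 and 0.215 against 0.128, 0.0862 and 0.146. These ratios did not overlap between the groups (exact two-sided permutation p = 0.1, the smallest possible), and they rest on at most 27 counts of COL4A3 per library.

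**Figure D2:**
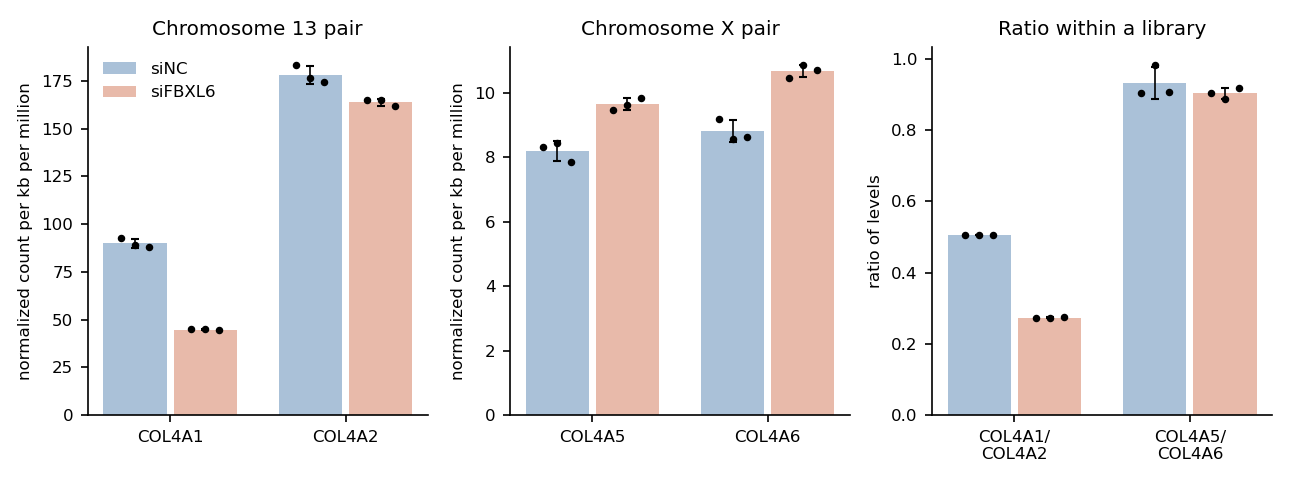
Type IV collagen chains. Left and middle, levels in RPKM for the pairs on chromosomes 13 and X. Right, the ratio of the partners within a library. Bars are means and whiskers SD of 3 libraries, and dots are libraries. COL4A1 over COL4A2 went from 0.505 to 0.273, and the libraries of the groups overlap for COL4A5 over COL4A6.

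The other collagens had 15 of 26 genes tested, 5 called higher and 5 lower, with a median log2 fold change of -0.0066. This share of 66.7% called compares with 40.2% of all genes tested. COL7A1, which forms the anchoring fibrils that tie the epithelial basement membrane to the stroma, was the most abundant of them. Its level was 84.2, 81.4 and 80.6 RPKM in the siNC-labelled libraries and 68.4, 66.9 and 65.2 RPKM in the siFBXL6-labelled ones. The groups were clearly apart, at a log2 fold change of -0.3 (SE 0.028, adjusted p = 1.56e-10). COL17A1, the hemidesmosomal collagen excepted from the members, was at 457.1 ± 6.57 against 589 ± 13.9 CPM (SD, n = 3) and rose by a log2 fold change of 0.37 (adjusted p = 1.18e-12).

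Among the FACIT collagens, which sit on the surface of fibrils, COL12A1 was the most abundant, at 70.1, 69.5 and 65.4 RPKM in the siNC-labelled libraries and 65, 66.7 and 65.8 RPKM in the siFBXL6-labelled ones. The groups overlapped, and it was not called (log2 fold change -0.05, adjusted p = 0.139). It was called lower with upper quartile scaling (adjusted p = 0.046), by library size alone (0.0197) and without siNC 3 (0.0152), in a range of 0.0152 to 0.349. COL9A2, a type IX chain, had 3345, 3858 and 3401 counts against 2622, 2367 and 2459. All its siFBXL6 values were below its siNC values, and it fell by 0.54 on the log2 scale (SE 0.041, adjusted p = 5.78e-13). The other type IX chain tested, COL9A3, was much lower and moved the opposite way, with 78, 102 and 109 counts against 153, 122 and 129 (log2 fold change 0.45, adjusted p = 0.0217). Its call was lost without siNC 1 (adjusted p = 0.124) and without siFBXL6 1 (0.134), in a range of 0.00999 to 0.134. COL16A1, COL19A1 and COL21A1 were not called, with log2 fold changes between -0.18 and 0.05.

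The short-chain collagens of type VIII, which form hexagonal networks beneath endothelia, also moved apart. COL8A1 had 382, 394 and 370 counts in the siNC-labelled libraries and 249, 235 and 185 counts in the siFBXL6-labelled ones. The groups did not overlap, and it fell by 0.8 on the log2 scale (SE 0.1, adjusted p = 7.23e-08). COL8A2 had 76, 82 and 84 counts against 96, 104 and 130, a log2 fold change of 0.42 (adjusted p = 0.0481). Its groups did not overlap, but the call was lost under 10 of the 15 alternatives judged at this threshold. Among them were the omission of siNC 1 (adjusted p = 0.104), siNC 2 (0.11), siNC 3 (0.052), siFBXL6 2 (0.0635) or siFBXL6 3 (0.278), DESeq2 (0.0907) and the replicate block (0.0525), in a range of 0.0325 to 0.278.

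COL18A1, the basement membrane multiplexin from which endostatin is cleaved, was at 5.96, 6.67 and 6.13 RPKM in the siNC-labelled libraries and 4.86, 4.73 and 4.47 RPKM in the siFBXL6-labelled ones. Its groups were apart, at a log2 fold change of -0.42 (SE 0.042, adjusted p = 5.52e-10). Of its exon bases 16.4% are shared with SLC19A1 on the opposite strand, which had a log2 fold change of -0.25 (adjusted p = 7.17e-05), so part of either count cannot be assigned without strand. COL13A1, a transmembrane collagen of cell contacts, had 213, 239 and 244 counts against 401, 412 and 384. Every siFBXL6 value was above every siNC value, and the gene rose by a log2 fold change of 0.75 (SE 0.095, adjusted p = 5.36e-08). The transmembrane collagen COL25A1 had 155, 153 and 116 counts against 108, 123 and 101, with overlap. It was called lower at a log2 fold change of -0.38 (adjusted p = 0.0431), a call lost with DESeq2 (0.0831) and without siNC 1 (0.166), siNC 2 (0.117), siFBXL6 1 (0.104) or siFBXL6 3 (0.154), in a range of 0.0162 to 0.166.

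Type VI collagen forms beaded filaments around cells. COL6A1 was at 4.99, 5.66 and 5.16 RPKM in the siNC-labelled libraries and 5.82, 5.48 and 6.05 RPKM in the siFBXL6-labelled ones. The groups overlapped, and the log2 fold change was 0.13 (adjusted p = 0.0293). This call was lost with DESeq2 (0.0567), with upper quartile scaling (0.0615), by library size alone (0.0811) and without siNC 1 (0.144), siNC 3 (0.0888), siFBXL6 1 (0.0849) or siFBXL6 3 (0.175), in a range of 0.00561 to 0.175. COL6A2 had 501, 564 and 458 counts against 676, 568 and 618, apart by a narrow margin after normalization, with a log2 fold change of 0.26 (adjusted p = 0.00575) that was no longer called without siFBXL6 1 (0.0697), in a range of 0.00292 to 0.0697. COL6A3, a further type VI chain, was not called (log2 fold change 0.09, adjusted p = 0.727).

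**Figure D3:**
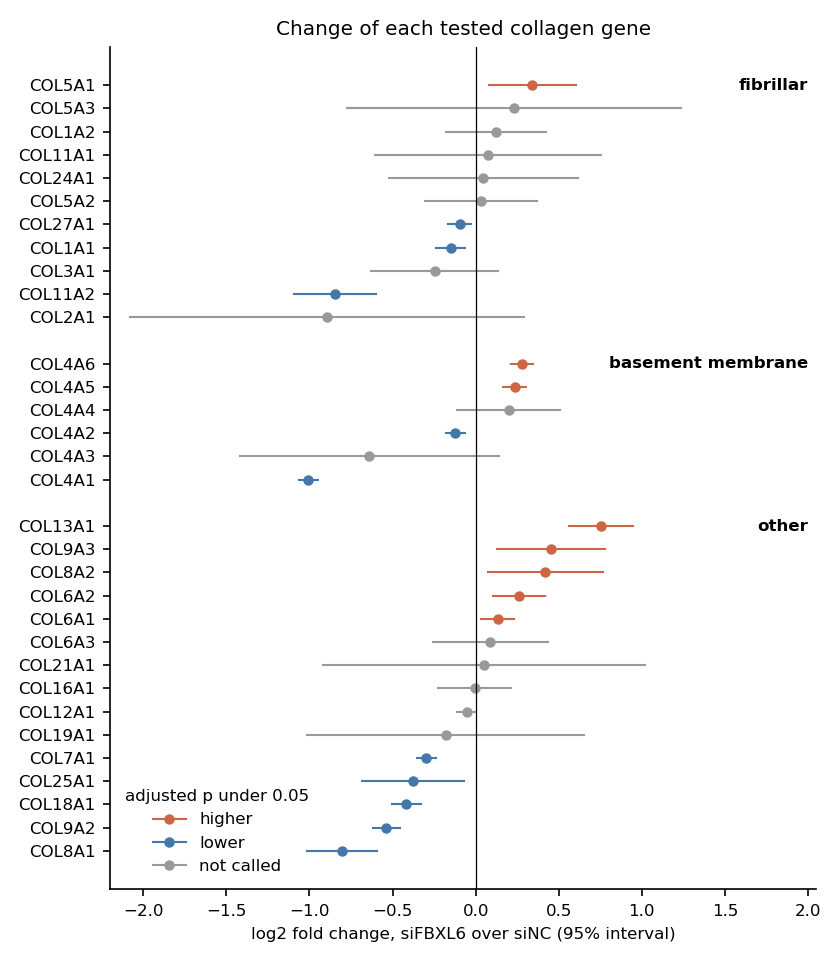
Log2 fold change, siFBXL6 over siNC, of the 32 tested collagen chain genes by class, with 95% intervals from edgeR's quasi-likelihood fit to 3 libraries per group. Colours give the call at an adjusted p under 0.05. Both directions occur in each class, though the only fibrillar call higher, COL5A1, is lost under DESeq2 and with no filter, and the change farthest from 0 among the called genes is that of COL4A1 at -1.01.

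Genes that act on collagen were described by lists of their roles. Of 88 such genes 79 were tested, and 28 were called higher and 26 lower. That is 68.4% called where 40.2% of all genes and 59.6% of genes at 10 CPM or more were. By list the share called ran from 53.8% for processing and crosslinking to 87.5% for the TGF-beta axis. Among folding and modification genes 7 of 20 were higher and 5 lower, with a median log2 fold change of -0.02. SERPINH1 (HSP47), the collagen-specific chaperone, was at 74.7, 74.5 and 80.4 CPM in the siNC-labelled libraries and 50.3, 52.3 and 51.7 CPM in the siFBXL6-labelled ones. It fell without overlap by 0.57 on the log2 scale (SE 0.036, adjusted p = 4.74e-15). FKBP14, a prolyl isomerase of the endoplasmic reticulum, was at 9.8, 10.8 and 12.3 against 19.8, 18.7 and 18.9 CPM. It rose without overlap, by a log2 fold change of 0.8 (adjusted p = 4.02e-12). P3H3, a prolyl 3-hydroxylase family member, fell by 0.46 (adjusted p = 7.17e-10).

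For export from the endoplasmic reticulum, 3 of 13 genes were higher and 6 lower, with a median log2 fold change of -0.09. The related transcription factors CREB3L1 and CREB3L2, which act on secretory genes, moved apart, with log2 fold changes of -0.8 (adjusted p = 3.69e-04) and 0.36 (adjusted p = 6.16e-09). PREB, which activates the SAR1 GTPase, fell by 0.17 (adjusted p = 5.11e-04). Of the 13 tested genes for processing and crosslinking 4 were higher and 3 lower, with a median of -0.04. Procollagen proteases of the BMP1 family differed, since BMP1 and TLL1 fell by 0.32 and 0.41 (adjusted p = 6.2e-07 and 2.51e-05), while TLL2 rose by a log2 fold change of 1.37 from a low 0.38 CPM (adjusted p = 8.58e-05). LOXL2, a lysyl oxidase that crosslinks type IV collagen, rose by 0.39 (adjusted p = 2.04e-11). PXDN, which makes the sulfilimine crosslink of the type IV network, rose by 0.66 from 0.946 CPM (adjusted p = 0.00805), a call lost without siFBXL6 3 (0.0708), in a range of 0.00289 to 0.0708.

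Partners of fibrils and basement membranes were tested for 10 of 15 genes, with 2 higher and 4 lower and a median log2 fold change of -0.12. The matricellular genes differed in direction. TNC (tenascin-C) was at 550.3, 530.8 and 522.2 CPM in the siNC-labelled libraries and 776.3, 763 and 776.2 CPM in the siFBXL6-labelled ones, apart by a log2 fold change of 0.53 (adjusted p = 6.73e-17). THBS1 rose by 0.36 (adjusted p = 4.79e-12), whereas SPARC, which binds collagen, fell by 0.79 from 3.26 CPM (adjusted p = 8.68e-06).

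Collagen receptors had 5 of 7 tested genes higher and 1 lower, with a median log2 fold change of 0.38. Of all genes tested, 20.5% were higher and 19.8% lower. The weakest of the 5 calls had an adjusted p of 0.0464, in a gene at 1.04 CPM in the siNC-labelled libraries. ITGA2, the alpha chain of a major collagen-binding integrin, was at 143.3, 148.3 and 144.7 CPM in the siNC-labelled libraries and 238.3, 246.9 and 249.8 CPM in the siFBXL6-labelled ones. It rose without overlap, by a log2 fold change of 0.75 (SE 0.031, adjusted p = 4.85e-20). Its beta partner ITGB1 rose by 0.23 (adjusted p = 6.08e-09), and ITGA11 rose by 0.73 from 0.687 CPM (adjusted p = 0.0101), a call lost without siNC 1 (0.0622) or siFBXL6 1 (0.0636), in a range of 0.00586 to 0.0636. MRC2, the receptor that takes up collagen for degradation, fell by 0.55 (adjusted p = 6.72e-15).

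In the TGF-beta axis, which drives collagen genes in many cells, 7 of 16 genes were higher and 7 lower, with a median log2 fold change of -0.07. The ligand TGFB2 and the receptors TGFBR1 and TGFBR3 rose by 0.55, 0.56 and 0.68 (adjusted p = 1.36e-13, 4.09e-14 and 6.15e-04). CCN2, a target gene of the pathway that the table lists under its older symbol CTGF, fell by 0.61 (adjusted p = 1.56e-07).

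**Figure D4:**
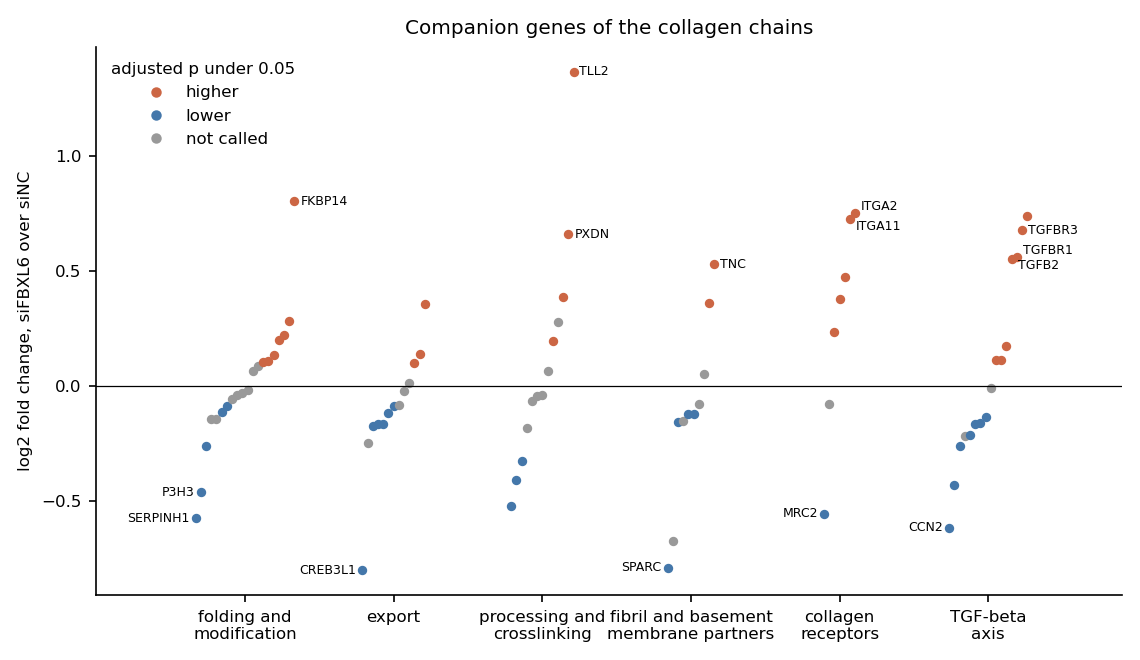
Log2 fold change, siFBXL6 over siNC, of the 79 tested genes that act on collagen, in 6 lists. Each point is 1 gene, sorted by change within its list and coloured by its call at an adjusted p under 0.05. Each list holds calls in both directions, and collagen receptors have 5 of 7 genes called higher, where 20.5% of all genes tested were.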

How the data were processed

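The authors deposited 1 table of counts per gene with exon coordinates on GRCh38, without normalization. For trimming and alignment the paper's methods name Trimmomatic and HISAT2, whereas the submitters' processing notes list fastp 0.23.0 and STAR. Both name featureCounts of Subread 1.5.1 for the counting. The annotation release, strand setting and treatment of reads mapping to several places are not given in the sources used here. Of 66948 values from 1 to 20, 71.3% were even, with 20272 values of 2 and 6086 of 1. Whether both reads of a pair were counted is not stated.

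Genes were filtered with filterByExpr (21298 of 56303 kept) and scaled by TMM, and the test was that of edgeR 4.0.16 (quasi-likelihood, condition only, limma 3.58.1, R 4.3.3), with Benjamini-Hochberg adjustment over all genes tested. The biological coefficient of variation was 3.57%. Library totals ran from 56814946 to 60968158 counts. Replicate numbers were read from the labels. RPKM used the table's exon lengths. Ratios of 7 chain pairs were tested by exact two-sided permutation. Among those not described above, COL8A1 over COL8A2 differed by -1.22 on the log2 scale and COL9A2 over COL9A3 by -0.999. Both were without overlap (permutation p = 0.1 each). COL6A1 over COL6A2 overlapped between the groups (log2 difference -0.128, permutation p = 0.3). Alternatives were DESeq2 1.42.0, other scalings and filters, removal of a gene length trend, a replicate block, an adjusted p under 0.01 and each library left out. Steps were tested on simulated data. The members and lists were chosen with earlier results of these data known. Named genes were FBXL6, every tested collagen gene, the 3 most counted untested ones, and in each list the 3 smallest adjusted p-values and each called gene whose log2 fold change was 0.58 or more in size. COL17A1, SLC19A1, SLC52A2, GS1-393G12.13, the antisense genes and the marker genes stand outside this rule. Some genes of the gene lists count in the list totals but are not reported by name here.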

Additional observations from a re-analysis of the deposited data

How the results depend on the processing

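Over the 15 alternatives judged at an adjusted p under 0.05, 420 of 472 values of the 32 tested collagen genes kept their direction and side of the threshold, 33 lost a call, 3 gained one and 16 changed sign. All 16 changes of sign were in uncalled genes. At an adjusted p under 0.01, which is not part of this tally, 6 of the 18 calls were lost, those of COL27A1, COL5A1, COL6A1, COL9A3, COL8A2 and COL25A1. The number of collagen genes called higher, 8, was 5 with DESeq2, 4 at an adjusted p under 0.01 and 4 to 6 with a library left out, and the number lower, 10, ranged from 8 to 11. For fibrillar genes called higher, 1 became 0 with DESeq2, with no filter and at an adjusted p under 0.01, and 0 to 1 with a library left out, while 1 had an unadjusted p under 0.05 with DESeq2 and with no filter. Other collagens called higher, 5, became 3 with DESeq2, upper quartile scaling or library size alone, 2 at an adjusted p under 0.01 and 2 to 4 with a library left out. The cause was not tested. Those with changes of sign ranged, with each library left out, from -0.046 to 0.15 for COL5A2, -0.14 to 0.25 for COL24A1, -0.12 to 0.28 for COL11A1, -0.0014 to 0.15 for COL6A3, -0.0595 to 0.059 for COL16A1, -0.34 to 0.0804 for COL19A1 and -0.28 to 0.55 for COL21A1 in log2 fold change. Without a change of sign, COL3A1 ranged from -0.384 to -0.0841, COL4A4 from 0.0916 to 0.315, COL1A2 from 0.0827 to 0.207 and COL12A1 from -0.0854 to -0.0363. FBXL6 ranged from -0.2 to -0.0921 and was called in none of them.

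COL4A1 ranged from -1.03 to -0.98 over all alternatives, and its log2 ratio to COL4A2 from -0.89 to -0.88 with a library left out. The log2 ratio of COL1A1 to COL1A2 ranged from -0.33 to -0.24 and the log2 ratio COL4A3 over COL4A4 from -1.02 to -0.6. Libraries of the same number in different groups did not deviate together (correlations -0.01, 7.99e-05 and 0.01), so they share only a number. With the replicate block 7 collagen genes were higher and 10 lower, and the call lost was that of COL8A2. Halving the counts, an alternative chosen after the even values were seen, gave 8 higher and 10 lower. The 95% interval of COL2A1, a gene of at most 18 counts per library, ran from -2.08 to 0.29 and so held the change of COL4A1.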
